A study of Mus musculus with 13 samples.

Results

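The genes described here are 40 interferon-stimulated genes of the mouse, taken by symbol from a list of known members of the response. All 40 were present among the 23238 gene symbols of the hippocampal tissue table and among the 24542 symbols of the cultured glia table. Interferons are secreted proteins that bind receptors on the cell surface, and receptor-bound kinases then phosphorylate STAT proteins. A complex that contains STAT2 and IRF9 binds a DNA element, the interferon-stimulated response element (ISRE), in the promoters of such genes. Their products detect or destroy viral RNA, block viral entry, modify other proteins or carry the signal on, and in brain they are known from microglia and astrocytes during infection, ageing and amyloid deposition.

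RNA was sequenced from 13 mouse libraries. The 7 tissue libraries were made from hippocampi of the 3xTg strain, an Alzheimer disease mouse in which a Thy1 promoter, active in neurons, drives human APP and tau genes with disease mutations beside a mutated presenilin 1. Adeno-associated virus 9 (AAV9) without the delivered genes had been given to 3 of them and AAV9 carrying Nurr1 (symbol Nr4a2) and Foxa2 to 4, the latter written N+F; amyloid beta is the labelled treatment of all 7, and the labels give no age for them. The 6 culture libraries came from glia of ICR pups at postnatal day 1, from hippocampus and from cortex. Each region had 1 library with control lentivirus and no amyloid beta (untreated), 1 with control lentivirus and amyloid beta (amyloid beta control), and 1 with N+F lentivirus and amyloid beta. Nurr1 and Foxa2 are transcription factors, and the series' title states the question as their effect on neuroinflammation and glial pathology.

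The tissue libraries held 10194437 to 25139406 counts and the culture libraries 52189025 to 78273121. In culture, Foxa2 was at 140 CPM (counts scaled to the library total) in the hippocampal and 13.5 CPM in the cortical N+F library and at 0 counts in the other 4. Nr4a2 was at 488 and 36.9 CPM in these N+F libraries, against 3.35 and 5.14 CPM in the amyloid beta controls. In the untreated libraries Nr4a2 was at 58.3 CPM in hippocampal and 19.0 CPM in cortical glia. In tissue, Nr4a2 ranged from 19.4 to 45.1 CPM in controls and from 22.1 to 34.2 CPM with N+F, and Foxa2 from 0.0795 to 0.199 CPM and from 0.0883 to 2.55 CPM, so both overlapped between the groups. The 12 neuron markers summed to 6305 to 8626 CPM in tissue; apart from Nr4a2 and Foxa2, tissue levels here and below are CPM scaled by TMM, an adjustment of the library total, and culture levels are not. The 2 untreated libraries stood apart and went against their label of glia: the summed level of the neuron markers was 14443 and 14413 CPM in them, against 390 to 424 CPM in the other 4 culture libraries. Their 8 oligodendrocyte markers summed to 9114 and 7679 CPM against 172 to 472 CPM, and their 12 microglia markers to 615 and 645 CPM against 71.2 to 279 CPM. In the cortical N+F library, 10 mural and fibroblast markers summed to 15891 CPM against 1161 CPM in the amyloid beta control. Fewer cells of a type and less RNA per cell cannot be told apart in these bulk libraries.

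In cultured glia the interferon-stimulated genes were far higher with amyloid beta than in the untreated library of the same region. Their sum was 233 CPM in untreated hippocampal glia and 3222 CPM in the amyloid beta control, and 256 and 3897 CPM in cortical glia. As a share of all counts, the 40 genes took 0.0233% and 0.0256% in the untreated libraries and 0.322% and 0.390% in the amyloid beta controls. There was 1 library per group, so no test was possible within a region; ratios are given on the log2(CPM + 1) scale, which understates the change of low genes, and a gene was counted when the ratio was at least 2-fold with at least 1 CPM in either library. By that rule 35 of 40 were higher in hippocampal glia, where 21.0% of all measured genes were, and 38 of 40 in cortical glia, where 19.8% were. The same 35 were higher in both regions, against 16.6% of genes. None of the 40 was lower in hippocampal glia and 1 was lower in cortical glia, against 25.6% and 25.4% of genes. The median log2 ratio over the 40 was 3.20 in hippocampal and 3.27 in cortical glia, beside -0.03 and -0.01 over all genes. Using the regions as replicates, with region as a term, edgeR's quasi-likelihood test with Benjamini-Hochberg adjustment called 35 of 40 higher and 0 lower, against 15.9% and 17.2% of all 16762 genes tested. Each of these ratios rests on the untreated libraries, whose neuron, oligodendrocyte and microglia markers moved the other way, and the part of that difference in the result was not tested.

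**Figure D1:**
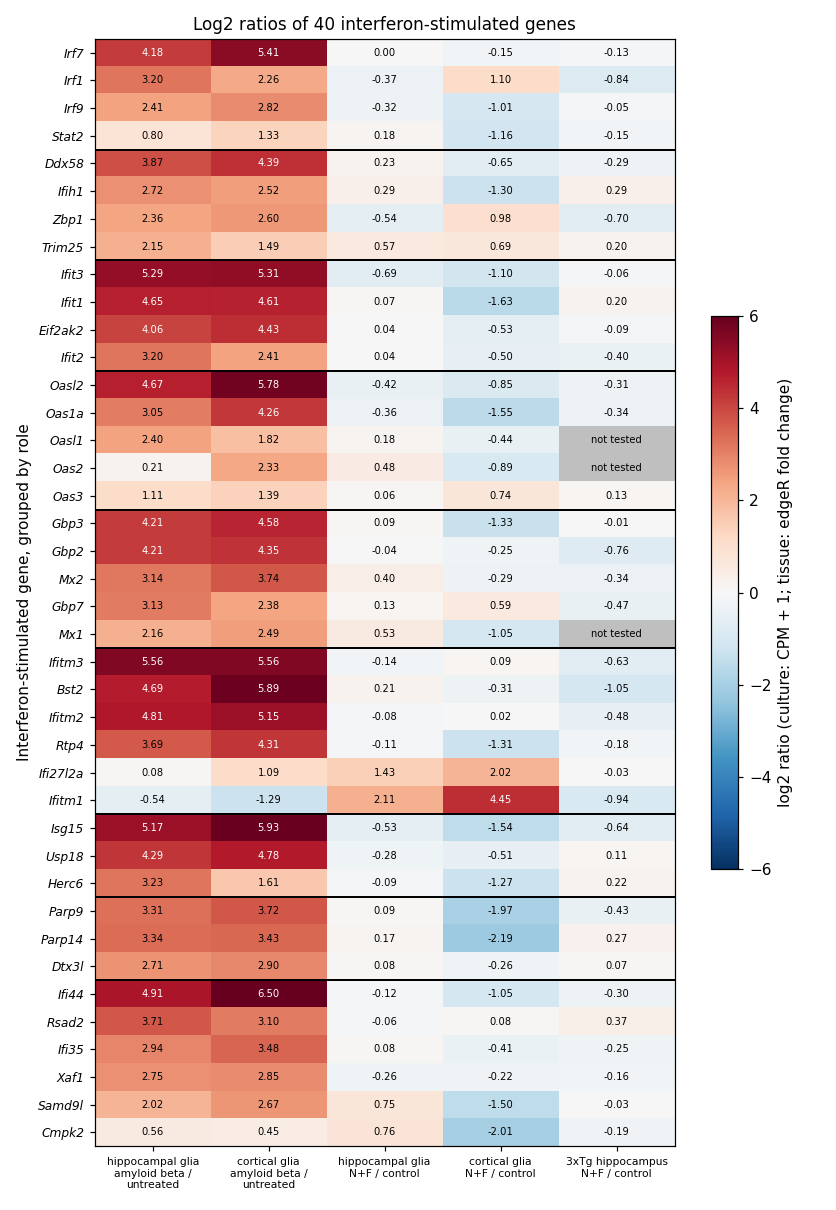
Log2 ratios of the 40 genes in 5 comparisons, with genes in rows grouped by role and the value written in each cell (culture ratios of CPM + 1, tissue fold changes from edgeR; grey cells were not tested). The amyloid beta columns are above 0 for 39 of 40 genes in each region, the N+F columns are mixed, and 28 of the 37 tested tissue values are negative.

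The transcription factors carry the signal or extend it. Irf7, an amplifier of type I interferon production, was at 2.83, 68.6 and 68.7 CPM in untreated, amyloid beta control and N+F hippocampal glia, and at 1.88, 121 and 109 CPM in cortical glia. Both amyloid beta libraries of a region were thus well above its untreated library. Irf1 and Irf9 were also at least 2-fold higher with amyloid beta in both regions (log2 ratios 3.20 and 2.26 for Irf1, 2.41 and 2.82 for Irf9). Stat2, the partner of IRF9, started from a higher level and moved less: 34.4 and 60.6 CPM in hippocampal glia, below 2-fold, and 34.8 and 89.1 CPM in cortical glia. The sensors of foreign nucleic acid (Ddx58, which encodes RIG-I, Ifih1, which encodes MDA5, and Zbp1) and Trim25, the ubiquitin ligase acting on RIG-I, were all at least 2-fold higher in both regions, with log2 ratios of 1.49 to 4.39.

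Proteins that act on viral RNA and its translation were higher too. In hippocampal glia, Ifit3 was at 6.48 CPM untreated, 291 CPM with amyloid beta and 181 CPM with N+F. In cortical glia it was at 7.78, 347 and 162 CPM. Its ratio to untreated was 44.9-fold and 44.6-fold, the regions being alike. The near copy Ifit3b was at 3.74, 218 and 126 CPM and at 4.68, 182 and 69.6 CPM, so reads of the pair may have been shared between them. Ifit1, Ifit2 and Eif2ak2, the double-stranded RNA kinase PKR, were higher by log2 ratios of 2.41 to 4.65. In the OAS family, whose members sense double-stranded RNA, Oasl2 was at 5.21, 158 and 117 CPM in hippocampal and 3.74, 260 and 143 CPM in cortical glia. Oas3 had 0 counts in both untreated libraries, where 3 counts would be 0.0444 and 0.0575 CPM. With amyloid beta it was at 1.15 and 1.61 CPM, which is 25.9 and 28.1 times the level of 3 counts. Oas2 was 2-fold higher only in cortical glia (0.17 to 4.89 CPM, against 1.17 to 1.51 CPM in hippocampal glia). It is listed in 2 rows, and these values did not come from the same one. In hippocampal glia the second row held all counts of both libraries (79 and 113). In cortical glia the second row held those of the untreated library (9) and the first those of the amyloid beta control (297). The difference between regions was not tested.

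The large GTPases Mx1, Mx2, Gbp2, Gbp3 and Gbp7, which trap viral or microbial structures, were all higher in both regions, with log2 ratios of 2.16 to 4.58. Among the membrane proteins, Ifitm3, which hinders fusion of viruses with endosomes, was at 8.01, 423 and 383 CPM in hippocampal glia and 9.24, 482 and 514 CPM in cortical glia. Ifitm2, a close relative, was at 10.5, 320 and 302 CPM and at 8.14, 325 and 328 CPM. Bst2, the tether that holds budding virus to the cell, was at 4.75, 148 and 171 CPM and at 2.82, 226 and 182 CPM. Of the 6 membrane genes, 4 were at least 2-fold higher in hippocampal and 5 in cortical glia. Ifi27l2a was at 1.32 and 1.45 CPM in untreated and amyloid beta control hippocampal glia, a log2 ratio of 0.08, and at 0.34 and 1.86 CPM in cortical glia, a log2 ratio of 1.09. Ifitm1 was lower with amyloid beta, at 3.15 and 1.85 CPM in hippocampal and 3.58 and 0.87 CPM in cortical glia, with log2 ratios of -0.54 and -1.29. Ifitm1 is listed in 2 rows, and these went opposite ways with amyloid beta. The first was at 0.62 and 0.94 CPM in hippocampal and 0 and 0.72 CPM in cortical glia. The second was at 2.53 and 0.91 CPM and at 3.58 and 0.15 CPM, so the lower sum came from the second row. Ifitm1 was the only member with a negative ratio in either region.

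The ubiquitin-like protein gene Isg15 was at 1.36, 84.3 and 58.0 CPM in hippocampal and 1.63, 159 and 54.1 CPM in cortical glia, 61.9-fold and 97.8-fold above untreated. Usp18, which removes ISG15 from proteins and restrains the receptor, and Herc6, a ligase that attaches it, were higher as well (log2 ratios 1.61 to 4.78). Ifi44 was at 1.55, 76.0 and 70.1 CPM and at 0.84, 166 and 79.6 CPM. The ADP-ribosylation genes Parp9, Parp14 and Dtx3l had log2 ratios of 2.71 to 3.72. Parp9 and Dtx3l overlap in the annotation, so without strand the reads of the stretch they share cannot be told apart. Cmpk2, a mitochondrial nucleotide kinase gene, was below 2-fold in both regions (22.0 and 32.8 CPM in hippocampal, 24.7 and 34.2 CPM in cortical glia). The remaining members Rsad2, Xaf1, Ifi35 and Samd9l were higher by log2 ratios of 2.02 to 3.71.

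Upstream of these genes, none of 9 interferon and interleukin ligand genes reached 1 CPM in any culture library. Ifnb1, the gene of interferon beta, had 0, 0 and 4 counts in hippocampal and 0, 2 and 3 counts in cortical glia, in the order untreated, amyloid beta control and N+F. Of 6 receptor subunit genes, 4 in hippocampal and 2 in cortical glia were at least 2-fold higher with amyloid beta and none was lower. Of 9 kinase, STAT and IRF genes, 3 and 2 were higher and 1 (Irf8) was lower in each region. Of 12 sensors and adaptors, 6 were higher and 1 (Aim2) lower in each region, and of 6 negative regulators, 2 were higher in each, among them Socs3 with log2 ratios of 4.52 and 2.94.

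Promoter sequences show what the members share in the DNA. RefSeq promoter windows of the GRCm38.p6 build, from 250 bases before to 50 bases after the gene start, were found for 31 of the 40 genes. The core of the ISRE, searched on both strands as GAAA, any 2 bases and GAAA again, occurred in 16 of these 31 genes. Counted by window, 16 of their 35 windows and 3.44% of all 32851 windows of that length held it. A second element of interferon signalling, GAS, searched as TTCNNNGAA, occurred in 8 of the 31 genes. Counted by window, it was in 8 of their 35 and in 8.30% of all windows. In the genes shown here, the first base of the core lay 14 to 120 bases before the gene start. A match is a description of letters and not a bound site. The stretches below are a selection, made after the values were seen. Of the 16 genes with a core, 7 were at least 2-fold lower with N+F in cortical glia. Of these 7, 4 are shown (Isg15, Ifit1, Gbp3 and Oas1a). From the genes with a core that were not lower by this rule, 3 are shown (Gbp7, Rsad2 and Ifitm2). Ifitm1 is shown as 1 of the 2 members that were higher with N+F in both regions, and has no core in its window. Ifi27l2a, the other, has no window in the table. Each is written 5′ to 3′ on the strand of its gene, with cores in capitals, which read as that pattern or as its reverse complement (TTTC, any 2 bases, TTTC).
Isg15, chr4:156200850-156200909, minus strand: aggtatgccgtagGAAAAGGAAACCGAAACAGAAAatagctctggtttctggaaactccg
Ifit1, chr19:34640779-34640838, plus strand: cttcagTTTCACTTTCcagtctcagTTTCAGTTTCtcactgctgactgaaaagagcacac
Gbp3, chr3:142559980-142560039, plus strand: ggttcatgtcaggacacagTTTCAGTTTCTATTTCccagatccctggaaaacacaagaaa
Oas1a, chr5:120907526-120907564, minus strand: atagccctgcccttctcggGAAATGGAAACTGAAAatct
Gbp7, chr3:142530258-142530317, plus strand: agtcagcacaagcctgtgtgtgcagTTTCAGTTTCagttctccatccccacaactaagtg
Rsad2, chr12:26456538-26456597, minus strand: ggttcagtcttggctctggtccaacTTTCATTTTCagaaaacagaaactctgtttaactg
Ifitm2, chr7:140955973-140956032, minus strand: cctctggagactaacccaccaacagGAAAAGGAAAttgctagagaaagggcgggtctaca
Ifitm1, chr7:140968005-140968064, plus strand: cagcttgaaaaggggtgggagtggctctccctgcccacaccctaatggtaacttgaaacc

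With amyloid beta, the genes with a core were at least 2-fold higher in 15 of 16 cases in hippocampal and 16 of 16 in cortical glia, and the 15 genes with a window but no core in 13 and 13. The median log2 ratios were 4.13 and 4.41 with a core and 2.75 and 2.67 without. With N+F in cortical glia, 7 of the 16 genes with a core and 5 of the 15 without were at least 2-fold lower, with medians of -0.59 and -0.44. Genes with and without the element were thus found among those lower with N+F.

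The N+F libraries were compared with the amyloid beta control of the same region, the library that also enters the comparison with untreated glia. In hippocampal glia the interferon-stimulated genes were nearly level, with a sum of 3222 CPM in the control and 3119 CPM with N+F. Only Ifitm1 and Ifi27l2a of the 40 were at least 2-fold higher, against 5.60% of all genes, and 0 were lower, against 0.767%. The median log2 ratio was 0.06, beside 0.12 over all genes, with 24 positive and 16 negative values from -0.69 to 2.11; these signs depend on the scaling, since with edgeR's TMM factors the median was -0.06 beside -0.01 over all genes and 10 members changed sign under TMM or size factors. In cortical glia the sum was 3897 CPM in the control and 2761 CPM with N+F. Here 16 members were at least 2-fold lower, against 15.1% of all genes, and 3 were higher (Ifitm1, Ifi27l2a and Irf1), against 12.9%. The median was -0.52, beside -0.16 over all genes, with 30 negative and 10 positive values. With TMM factors or size factors, 11 were lower and 4 higher. The shares of 15.1% and 12.9% are for library totals and do not apply to these counts. The median was then -0.35 or -0.30 beside 0.01 or 0.06 over all genes. In both regions at once, 2 members were higher, against 2.07% of genes, and 0 were lower, against 0.119%. With region as a term, edgeR's quasi-likelihood test called 0 of 40 members and 0 of all 16762 genes (0%). At an unadjusted p under 0.05 it gave 2 members higher (Ifitm1 and Ifi27l2a) and 3 lower (Ifit3, Irf9 and Isg15), against 4.91% and 1.99% of genes, with a smallest adjusted p of 0.611.

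**Figure D2:**
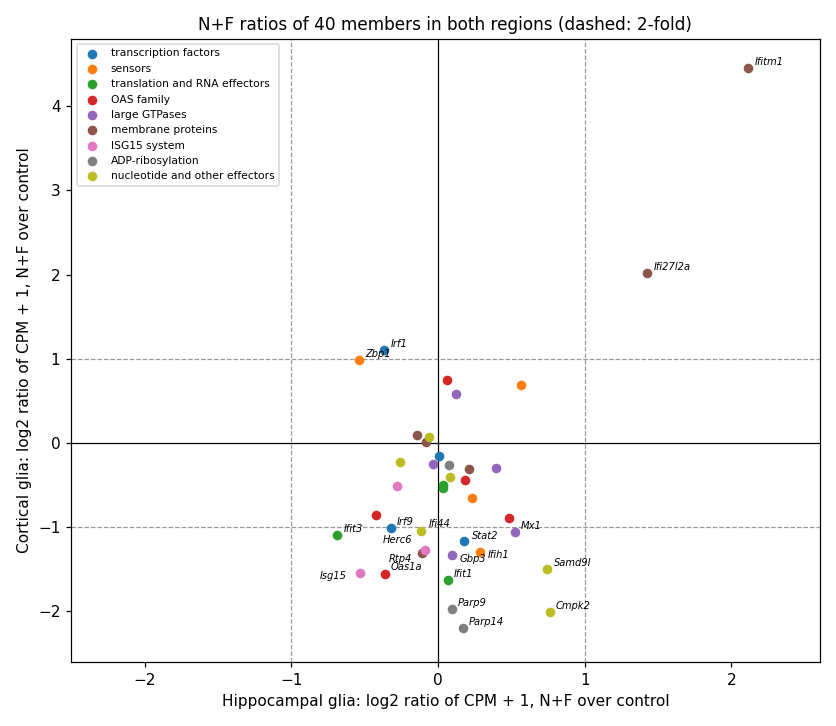
Log2 ratio of CPM + 1, N+F over amyloid beta control, in hippocampal glia (horizontal axis) and cortical glia (vertical axis), 1 point per gene and coloured by role, with dashed lines at 2-fold. Ifitm1 and Ifi27l2a lie beyond both upper lines, and 16 genes lie below the lower line of cortical glia while none lies left of the lower line of hippocampal glia.

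The 2 genes higher with N+F in both regions are membrane proteins. Ifitm1, which restricts viral entry at the cell surface, was at 1.85 CPM in the amyloid beta control and 11.3 CPM with N+F in hippocampal glia, a ratio of 6.13 (95% counting interval 5.10 to 7.42). In cortical glia it was at 0.87 and 39.9 CPM, a ratio of 45.7 (34.9 to 61.2). The culture table lists Ifitm1 in 2 rows and both were higher: 70 to 266 and 68 to 419 counts in hippocampal glia, 44 to 1304 and 9 to 1820 counts in cortical glia. Its relatives Ifitm2 and Ifitm3 did not share this, with ratios of 0.91 to 1.07 in both regions. Ifi27l2a, which encodes a small hydrophobic protein, was at 1.45 and 5.57 CPM in hippocampal glia, a ratio of 3.86 (3.10 to 4.83), and at 1.86 and 10.6 CPM in cortical glia, a ratio of 5.70 (4.68 to 7.0). Ifi27, which overlaps it, was lower with N+F (167 and 116 CPM, 176 and 141 CPM). The counting intervals are exact conditional ones and cover counting error only, not differences between cultures.

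In cortical glia the members lower with N+F came from all 9 roles. They are given because they passed the 2-fold rule in that region, and were singled out after their values were seen. Parp14, a mono-ADP-ribosyltransferase gene, was at 5.10 CPM untreated, 64.8 CPM in the amyloid beta control and 13.4 CPM with N+F, while the same libraries of hippocampal glia held 5.24, 62.3 and 70.2 CPM. Its N+F ratio was 0.207 in cortical (0.193 to 0.221) and 1.13 in hippocampal glia (1.08 to 1.18). Cmpk2 was at 34.2 and 7.72 CPM in cortical glia, below the 24.7 CPM of the untreated library, and at 32.8 and 56.2 CPM in hippocampal glia. Parp9 was at 72.9 and 17.9 CPM, Ifit1 at 105 and 33.2 CPM, Oas1a at 32.1 and 10.3 CPM and Isg15 at 159 and 54.1 CPM in the cortical amyloid beta control and N+F libraries. All of these except Cmpk2 remained above the untreated library in cortical glia. The others of the 16 were Samd9l, Gbp3, Rtp4, Ifih1, Herc6, Stat2, Ifit3, Ifi44, Mx1 and Irf9, with log2 ratios from -1.50 to -1.01. Under all 3 scalings 11 genes stayed at least 2-fold lower, and Stat2, Ifit3, Ifi44, Mx1 and Irf9 did not.

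**Figure D3:**
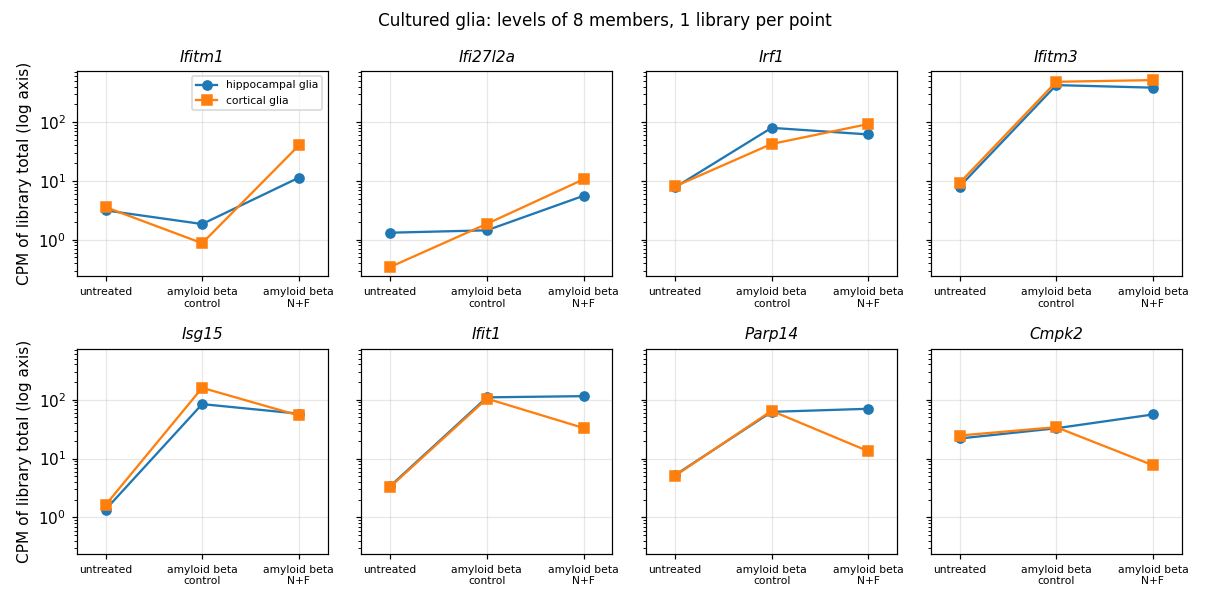
CPM of the library total on a log axis for 8 members under the 3 culture conditions, in hippocampal (blue circles) and cortical glia (orange squares), 1 library per point with lines joining a region. Ifitm1 and Ifi27l2a are highest with N+F in both regions, while Ifit1, Parp14 and Cmpk2 are at least 2-fold lower than the amyloid beta control in cortical glia and not in hippocampal glia.

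The 2-fold rule was also passed upward by Irf1 in cortical glia, at 42.3 CPM in the control and 92.2 CPM with N+F, a ratio of 2.18 (2.08 to 2.28). In hippocampal glia Irf1 was at 79.6 and 61.5 CPM, a ratio of 0.773 (0.741 to 0.805), so that the regions differed in direction; this difference was not tested. Zbp1 was near the threshold in cortical glia, at 6.59 and 14.0 CPM (log2 ratio 0.98). Rows of 1 gene could differ. Irf9 is listed in 3 rows. The third was at 31.5 CPM in the control and 2.63 CPM with N+F in hippocampal glia, and at 13.2 and 1.99 CPM in cortical glia. The first was at 17.8 and 24.9 CPM in hippocampal and 30.4 and 21.9 CPM in cortical glia. The second was at 17.8 and 25.9 CPM and at 43.2 and 18.6 CPM. The third row was thus low with N+F in both regions. In cortical glia, rows of other members also went different ways. The 3 rows of Gbp3 were at 4.28 and 0.42, 6.37 and 7.93, and 152 and 55.9 CPM. The 2 rows of Ifih1 were at 2.57 and 4.10, and 45.3 and 14.8 CPM. The table does not say what distinguishes the rows.

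Genes of the pathway moved in both directions with N+F in cortical glia. Of 6 receptor genes, 2 were at least 2-fold higher (Ifnar2, log2 ratio 1.08, and Ifngr2, 1.78) and none was lower. Among the kinase, STAT and IRF genes, Stat3 (-1.18) and Irf3 (-1.06) were at least 2-fold lower and Irf8 (1.60) and Irf5 (1.10) at least 2-fold higher. Of 12 sensors and adaptors, Ticam1 (-1.26) and Tlr3 (-1.17) were lower, and none of 6 negative regulators passed in either direction. In hippocampal glia 0 genes of these lists passed the 2-fold rule.

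Markers of other cell types moved with the same cortical comparison. Of 10 mural and fibroblast markers, 6 were at least 2-fold higher with N+F and 0 lower, and their sum was 1161 CPM in the control and 15891 CPM with N+F; in hippocampal glia it was 2462 and 3669 CPM, with 0 of 10 passing. Col3a1, a fibroblast collagen, was at 1.96 CPM in the cortical control and 2033 CPM with N+F. Endothelial markers summed to 8.63 and 104 CPM, with 4 of 10 at least 2-fold higher and 0 lower. Choroid plexus markers summed to 3.79 and 406 CPM, with only 1 of 8 at least 2-fold higher (log2 ratio 7.96) and 1 lower. The 3 choroid plexus markers that reached 1 CPM had a median log2 ratio of -0.30. The sum of 10 astrocyte markers was 9224 and 7334 CPM in cortical and 7950 and 5641 CPM in hippocampal glia. Microglia markers summed to 152 and 279 CPM in cortical glia, with 2 of 12 at least 2-fold higher and 1 lower. The 11 that reached 1 CPM had a median log2 ratio of 0.30, and 7 were positive; Siglech was at 0 in both libraries. In hippocampal glia microglia markers summed to 96.2 and 71.2 CPM, with 0 of 12 at least 2-fold higher and 5 lower. Oligodendrocyte markers summed to 172 and 472 CPM in cortical glia, with 6 of 8 at least 2-fold higher and 0 lower, and to 299 and 257 CPM in hippocampal glia. Leukocyte markers summed to 4.17 and 11.4 CPM, with 9 and 6 of 12 at 0. The part of these cell types in the ratios of the interferon-stimulated genes was not tested.

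In 3xTg hippocampus no interferon-stimulated gene passed the test between N+F and control. Of the 40, 37 had enough counts to be tested by edgeR's quasi-likelihood test, and 0 were called at an adjusted p under 0.05, where 0.103% of all 15523 genes were called lower and 0.00644% higher. DESeq2 also called 0, against 0.509% lower and 0.439% higher. The adjusted p of the 37 ran from 0.544 to 0.997. At an unadjusted p under 0.05, edgeR gave 2 lower (Irf1 and Gbp2) and 0 higher, against 4.36% and 4.10% of genes, and DESeq2 likewise gave 2 lower. Fitted log2 fold changes were below 0 for 28 of the 37, beside 50.8% of all genes, with a median of -0.18 beside -0.00. None of the 37 tested members had its groups apart, against 4.21% of genes with all N+F libraries below all controls and 3.90% above. The summed level, in CPM scaled by TMM, was 348, 351 and 375 in the controls and 365, 319, 376 and 274 with N+F, so the groups overlapped.

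The 8 tested members of smallest unadjusted p were all lower on average with N+F. Irf1 was at 5.90, 5.18 and 4.03 CPM in controls and at 1.91, 4.28, 1.58 and 3.43 CPM with N+F, or 5.03 ± 0.945 (SD, n = 3) and 2.80 ± 1.28 CPM (SD, n = 4). Only N+F library 2 reached into the control range, and the log2 fold change was -0.84 ± 0.36 (SE), with an edgeR adjusted p of 0.544. Gbp2 was at 8.08, 10.3 and 6.63 CPM in controls and at 6.32, 4.37, 7.01 and 2.08 CPM with N+F. One N+F library overlapped the controls, and the log2 fold change was -0.76 ± 0.35 (SE), with an edgeR adjusted p of 0.584. Ifit2 was at 7.83, 7.09 and 8.05 CPM in controls and at 5.12, 5.53, 7.11 and 5.51 CPM with N+F. Its overlap again rested on 1 N+F library, here the third, and the log2 fold change was -0.40 ± 0.21 (SE), with an edgeR adjusted p of 0.662.

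**Figure D4:**
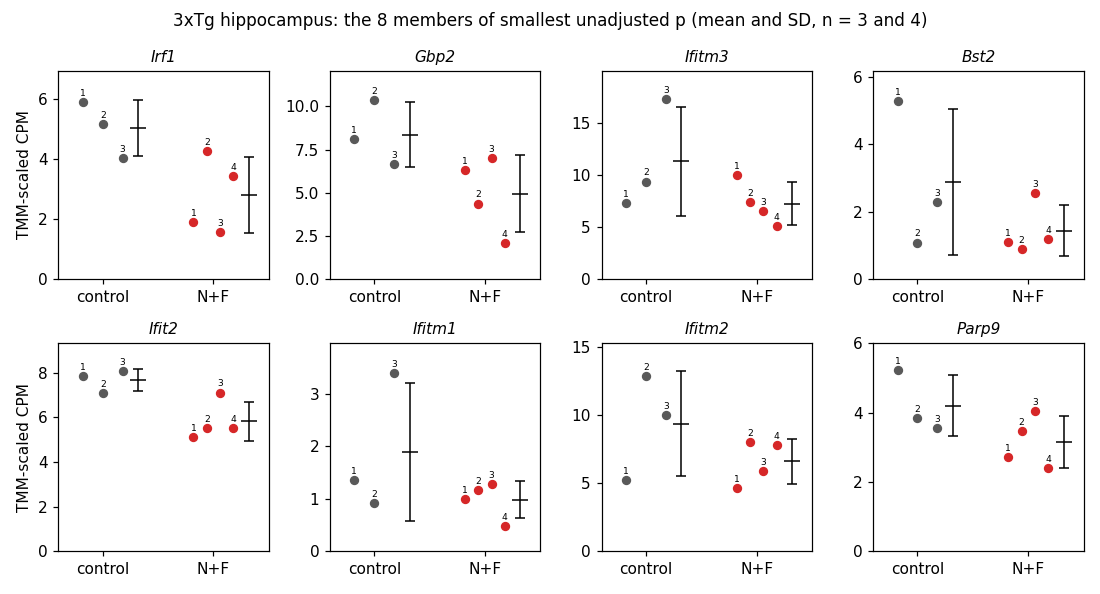
TMM-scaled CPM of the 8 members of smallest unadjusted p in each tissue library, with library numbers beside the points (3 controls in grey, 4 N+F in red) and the mean and SD beside each group. The groups overlap in all 8, and the smallest adjusted p is 0.544.

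Each of the 6 membrane genes was lower on average with N+F (median log2 fold change -0.56), and none passed the test. Ifitm3 was at 7.30, 9.35 and 17.2 CPM in controls and 9.93, 7.41, 6.52 and 5.11 CPM with N+F (log2 fold change -0.63). Ifitm2 was at 5.26, 12.9 and 10.03 CPM and at 4.62, 8.03, 5.92 and 7.82 CPM (-0.48). For both, the control values were spread over more than the N+F values. Ifitm1, higher with N+F in both cultures, was at 1.36, 0.92 and 3.40 CPM in tissue controls and at 1.00, 1.16, 1.28 and 0.48 CPM with N+F (log2 fold change -0.94 ± 0.53 SE, edgeR adjusted p = 0.700). Ifi27l2a was at 3.84 ± 1.16 CPM in controls (SD, n = 3) and 3.77 ± 1.16 CPM with N+F (SD, n = 4). Neither gene was higher on average with N+F in the tissue. Bst2 was at 5.29, 1.09 and 2.29 CPM in controls and at 1.10, 0.89, 2.57 and 1.20 CPM with N+F, a log2 fold change of -1.05 that was -0.25 without control 1.

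Control library 1, the deepest, was high for several members. It held at least 2 times the mean of the other 2 controls for Bst2 (3.14), Oasl2 (2.81), Isg15 (2.59) and Samd9l (2.01). These are 4 of the tested members, by CPM scaled by TMM. By CPM of the library total, which is another scale, 4.05% of the 15073 genes with a mean of at least 1 CPM did so. Isg15 was at 2.50, 0.75 and 1.18 CPM in controls and 1.30, 1.07, 0.69 and 0.88 CPM with N+F, and its log2 fold change of -0.64 became 0.01 without that library. Leaving control 1 out moved the median over the tested members from -0.18 to -0.09, with 21 of 37 negative. Without any TMM factor it was -0.28, beside -0.09 over all genes.

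Among the other roles, the 4 transcription factors and the 4 tested GTPases had negative fold changes, although Stat2 (0.10), Irf9 (0.12) and Gbp3 (0.27) were positive without control 1. Negative values were also found for 3 of 4 RNA effectors, 2 of 3 tested OAS genes, 5 of 6 nucleotide and other effectors, 2 of 4 sensors, 1 of 3 genes of the ISG15 system and 1 of 3 ADP-ribosylation genes. Among these, Samd9l (0.41), Oasl2 (0.40), Eif2ak2 (0.02) and Isg15 (0.01) were positive without control 1. Parp9 was at 5.22, 3.84 and 3.55 CPM in controls and at 2.71, 3.48, 4.05 and 2.39 CPM with N+F (log2 fold change -0.43 ± 0.30 SE, edgeR adjusted p = 0.778). The largest positive value was that of Rsad2, the antiviral radical enzyme viperin, at 2.18, 4.51 and 3.87 CPM and at 4.51, 5.09, 4.44 and 3.91 CPM (0.37, edgeR adjusted p = 0.819). The other positive values were 0.07 to 0.29, for Ifih1, Parp14, Herc6, Ifit1, Trim25, Oas3, Usp18 and Dtx3l. Parp14, lower with N+F in cortical glia, was at 2.64 ± 0.348 CPM in controls (SD, n = 3) and 3.17 ± 0.677 CPM with N+F (SD, n = 4), and Cmpk2 at 4.64 ± 0.635 and 4.07 ± 1.35 CPM. The 3 genes too low to be tested had few counts: Mx1 had 43, 6 and 8 in controls against 2, 2, 8 and 14 in the N+F libraries. Oas2 had 18, 1 and 8 against 4, 4, 8 and 7, and Oasl1 had 9, 7 and 4 against 1, 2, 0 and 3. For Oasl1 every N+F library was below every control, at 0.316 to 0.584 CPM in controls and 0 to 0.239 CPM with N+F, where the highest N+F and the lowest control value rest on 3 and 4 counts. DESeq2 gave no adjusted p for these 3 genes; its log2 fold change for Oasl1 was -1.60, at an unadjusted p of 0.189.

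In the tissue, none of the 9 ligand genes had enough counts to be tested. Of the other pathway lists, 6 of 6 receptors, 9 of 9 kinase, STAT and IRF genes, 11 of 12 sensors and adaptors and 5 of 6 negative regulators were tested, and 0 were called. The receptor subunit Il10rb was at 9.18 ± 3.21 CPM in controls (SD, n = 3) and 5.29 ± 0.351 CPM with N+F (SD, n = 4), with a log2 fold change of -0.81 ± 0.24 (SE) and an edgeR adjusted p of 0.320. Microglia markers summed to 565, 715 and 613 CPM in controls and 617, 501, 543 and 408 CPM with N+F, with negative fold changes for 10 of 12 and a median of -0.26. Endothelial markers summed to 51.0, 58.7 and 86.5 CPM and to 41.8, 60.2, 44.5 and 40.9 CPM, with 10 of 10 negative, and mural and fibroblast markers to 84.2, 429 and 397 CPM and 59.1, 82.1, 75.7 and 78.8 CPM, with Col1a1 called lower (edgeR adjusted p = 0.0375). Of 9 markers of hippocampal excitatory neurons, 3 were called lower (Fibcd1, Neurod6 and Spink8), with a median log2 fold change of -0.94 and sums of 212 to 283 CPM in controls and 163 to 205 CPM with N+F. Choroid plexus markers summed to 1136 to 2859 CPM in controls and 164 to 3936 CPM with N+F. No microglia or endothelial marker was at 0 in a tissue library. The part of these cell types in the values of the interferon-stimulated genes was not tested.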

How the data were processed

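The authors deposited raw counts per gene symbol in a tissue table (7 libraries) and a culture table (6), made from total RNA (1.3 ug, SMARTER mRNA-Seq kit) per the labels' protocols. The submitters' processing notes name TopHat, HISAT2, edgeR and the human build hg19, although the symbols are mouse symbols, so no coordinates are given for the counts and a build for them is not settled. Rows of 1 symbol were summed (23282 to 23238 and 36780 to 24542 rows to symbols; the members took 40 and 57 rows, 13 members having several in culture). The members, gene lists and roles were chosen with earlier results of these data known.

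Tissue counts were tested with edgeR 4.0.16 (filterByExpr, TMM, quasi-likelihood test, Benjamini-Hochberg over 15523 genes). In culture, with 1 library per group, log2 ratios of CPM of the library total + 1 were used, with exact 95% counting intervals. Values were given in every library for the 8 tissue members of smallest p, for members 2-fold different with N+F in both regions, and for the 8 largest and the negative amyloid beta ratios; other named members were chosen after their values were seen. Alternatives were DESeq2 1.42.0, other scalings, filters, pseudocounts and fold thresholds, left-out libraries, a replicate block and an edgeR fit with region as a term. The edgeR script was tested on simulated data. The labels do not state that the libraries of a group are from different mice, and p-values then reflect only the spread between libraries, which may be technical. In tissue, 6 neighbouring chromosome X symbols took 1.73% to 4.80% of all counts, against 0.0399% to 0.0472% in culture (chosen after their values were seen). The lowest detectable level, 3 counts, is below 1 CPM in all libraries. The values of 1 gene of the pathway lists are not reported here.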

Additional observations from a re-analysis of the deposited data

Results flagged for a closer look

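In the tissue, Samd9l was lowest in N+F library 4, at 1.28 CPM, while the other 3 N+F libraries were at 3.21 to 3.39 CPM. This gap is larger than Dixon's 95% limit for 4 values. Chance gives such a gap in about 1 of 20 groups, and Samd9l was picked out from the 40 members after their values were seen. Cmpk2 moved in opposite directions with N+F in the 2 culture regions, with log2 ratios of 0.76 in hippocampal and -2.01 in cortical glia, a difference of -2.77. Samd9l did the same, with 0.75 and -1.50, a difference of -2.25. With 1 library per group neither difference between regions was tested.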

How the results depend on the processing

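In tissue, 0 members were called under every alternative run, including DESeq2, no low count filter and each left-out library. The median log2 fold change over tested members ranged from -0.24 to -0.09 with a library left out and was -0.28 without TMM. The replicate numbers did not pair the libraries (correlations of same-numbered deviations -0.00, -0.08 and 0.13, and only pair 3 correlated best with its own number); with the replicate number as a block 0 were called and the median was -0.10, with 23 of 37 negative. In hippocampal glia the median N+F ratio turned to -0.059 with TMM and -0.090 with DESeq2's size factors. At a threshold of 1.5-fold, N+F gave 4 higher and 1 lower in hippocampal glia, 7 higher in cortical glia and 1 lower in both regions. At 4-fold it gave 1 higher in hippocampal glia, 2 lower in cortical glia and 1 higher in both regions. A pseudocount of 0.1 CPM gave 5 higher in cortical glia, and the edgeR fit with region as a term 0 in both regions. For amyloid beta in cortical glia, the 1 lower member became 0 at a minimum of 5 CPM and at 4-fold. The other counts of members stayed within 1.5 times the reported ones. The shares of all genes given above for culture ratios are for the 2-fold rule on library totals. Shares at the other thresholds, pseudocount and minimum are not given. With 1 culture library per group, the spread between cultures is unknown, and members near 1 CPM are the least precise.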
